A study of Rattus norvegicus with 42 samples.

Results

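Soleus and extensor digitorum longus (EDL) were compared after 7 days of hindlimb unloading followed by 7 days of recovery, a phase called R7. The comparison used the libraries labelled soleus or EDL muscle and, in both cases, 7 days of unloading and 7 days of recovery, which gave 6 of the 42 libraries of the series, 1 soleus and 1 EDL library from each of the rats U12, U13 and U19. All 9969 deposited transcription start site (TSS) peaks outside the mitochondrial genome were taken, of 9971 in all, and 9944 of them passed the filter on low counts. The animals were mature Wistar rats hung by the tail to take the load off the hindlimbs, then released to move freely in the cage. The R7 rats therefore share the unloading and the reloading, and the 2 groups differ by muscle and, in U13 alone, by sequencing lane. Control rats were active animals that were never unloaded, and D7 rats had 7 days of unloading with no recovery. Each of these phases, like R7, had 3 rats with both muscles. Whole muscles were used, so in these bulk samples fewer cells of a type and less RNA per cell cannot be told apart.

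Soleus is a postural muscle built mainly of slow, oxidative fibres, and EDL is a muscle of fast, largely glycolytic fibres. Fibre types differ in the myosin heavy chain they make, and unloading is known to shift the slow muscle towards fast isoforms. Cap analysis of gene expression (CAGE) reads the capped 5′ end of RNA, so each tag marks a capped end. A gene with several promoters gives several peaks, but several peaks need not be several promoters. Peaks are called starts below, and whether each is a promoter of its own was not tested. Levels are given in CPM, the tags of a peak per 1000000 tags in tested peaks with the library's total scaled by TMM factors, and a tag marks a start whatever the length of its transcript. Peaks are named by their position in the rat build Rnor_6.0. No annotation of that build was used here, so gene names are given only for windows that the study itself names.

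The muscle labels could be checked at 1 such window, that of Myh4, which encodes the fast type IIb myosin heavy chain. Its 35 tested peaks summed to 2305, 3464 and 1858 CPM in the EDL libraries of U12, U13 and U19, and to 14.9, 24.6 and 39.2 CPM in their soleus libraries. All 3 libraries labelled EDL were thus far above all 3 labelled soleus, a 97.0-fold difference between the means. Because all 35 peaks of the window were called lower in soleus, the 250 bases before the annotated Myh4 start are shown, from RefSeq in the newer build GRCr8, chr10:52421898-52422147, plus strand. The peak positions of Rnor_6.0 cannot be placed on it. Capitals mark matches to TATAAA, the core of the TATA box, and to CANNTG, the E-box motif that myogenic regulatory factors bind, each searched on both strands.
Myh4: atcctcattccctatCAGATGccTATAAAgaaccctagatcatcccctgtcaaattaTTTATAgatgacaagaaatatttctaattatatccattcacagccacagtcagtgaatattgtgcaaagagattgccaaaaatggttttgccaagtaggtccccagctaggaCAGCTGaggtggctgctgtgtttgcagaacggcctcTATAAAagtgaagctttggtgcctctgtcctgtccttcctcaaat
The window holds TATAAA at -227 and -45 on the sense strand and at -193 on the other strand, counted back from the base before the start, and CANNTG at -235 and -81. No match of one motif overlaps one of the other. TATAAA occurred in 12.9% of 33469 RefSeq rat promoter windows of the same length, and in 2.26% within the last 50 bases on the sense strand, while CANNTG occurred in 65.5%. A TATAAA near the start is not particular to Myh4 in its gene cluster. The windows of Myh1, Myh2 and Myh3 held it at -33, -30 and -30, and those of Myh8 and Myh13 did not hold it. A match describes these letters and is no evidence that a factor binds there.

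The 6 R7 libraries held between 2814982 tags (U12 EDL) and 14022389 tags (U19 EDL), 79.5% to 94.5% of them in the peaks and 3.20% to 9.18% on the mitochondrial genome. Both muscles of U12 were sequenced in lane 5 and both of U19 in lane 6, while U13 was split, soleus in lane 5 and EDL in lane 6. Control libraries were all in lane 1, and D7 libraries in lane 3 but for U3 EDL in lane 6. Phase and lane thus largely coincide, so changes of 1 muscle between phases cannot be cleanly told apart from lane. The U19 soleus library was closer to the control soleus libraries than to its own group. Its mean Pearson correlation of log2 CPM across peaks was 0.866 with the other R7 soleus libraries and 0.921 with the control soleus libraries. For U12 these were 0.877 and 0.835, and for U13 0.917 and 0.905. The EDL libraries of U13 (0.935 with R7, 0.953 with control EDL) and U19 (0.933 and 0.952) were closer to controls too, and that of U12 was not (0.925 and 0.916). Results that turn on U19 are given with and without it.

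Of the 9944 peaks, 1578 (15.9%) differed between soleus and EDL at R7, 868 (8.73%) higher and 710 (7.14%) lower in soleus, at an adjusted p under 0.05 and past the study's cutoff on the fold change, in edgeR's quasi-likelihood test paired by rat. The median log2 difference, soleus minus EDL, was 2.83 among the higher and -2.66 among the lower peaks, against 0.08 over all tested peaks. It lay beyond 5 in 116 higher and 125 lower peaks. Without the fold cutoff, 2315 peaks (23.3%) passed the adjusted p. In 1447 of the 1578 (91.7%) no soleus library overlapped an EDL library, which held for 29.1% of all tested peaks. The 868 soleus peaks took 10.1%, 11.6% and 11.7% of all tags of tested peaks in the soleus libraries of U12, U13 and U19, and 1.32%, 1.35% and 1.46% in their EDL libraries. The 710 EDL peaks took 8.04%, 9.46% and 8.19% in EDL and 1.91%, 1.35% and 1.41% in soleus. Most tags of every library lay in peaks that were not called. U12 and U13 showed the direction of the call in 1568 and 1578 of the 1578 peaks, and U19 in 1533. The calls were made from these same rats, so such agreement was largely fixed by the selection. Adding sequencing lane to the fit gave 1042 calls, fitting the 6 libraries alone gave 969 (430 higher and 539 lower in soleus), and leaving out U13 gave 1106, of which 1017, 949 and 1074 were among the 1578. Without U19, 1939 peaks were called, 1355 of them among the 1578, which is 85.9% of the 1578 and 69.9% of the 1939.

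**Figure D1:**
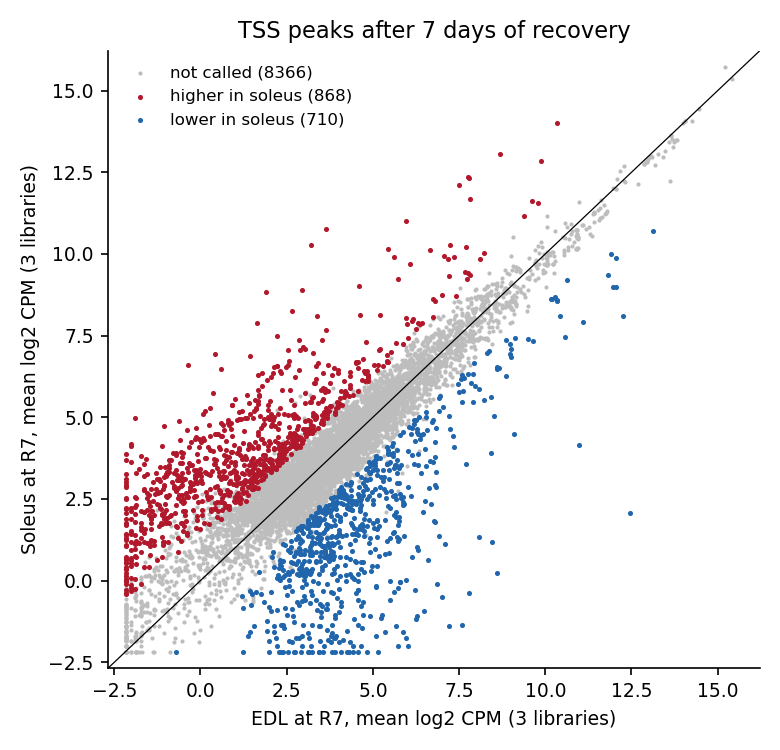
Each point is 1 of the 9944 tested TSS peaks, with its mean log2 CPM over the 3 EDL libraries of R7 on the horizontal axis and over the 3 soleus libraries on the vertical axis, and the line marks equal levels. Red points are the 868 peaks higher in soleus and blue points the 710 lower in soleus, and grey points were not called.

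The difference ran through all levels of abundance. Taking the higher muscle of each peak, 12.8% of peaks under 10 CPM were called, 17.6% of those from 10 to 100, 16.8% from 100 to 1000, and 22.5% (39 of 173) at 1000 CPM or more. Calls were spread unevenly over the chromosomes. On chromosome 15, 87 of 320 tested peaks (27.2%) were higher in soleus, against 8.73% over the genome. On chromosome 10, 137 of 877 (15.6%), and on chromosome 1, 144 of 1218 (11.8%), were lower in soleus, against 7.14% over the genome. Chromosomes 12, 13 and 17 followed chromosome 15, with 14.8%, 14.2% and 13.8% of tested peaks higher in soleus. Dense rows of peaks, described further on, lay on chromosomes 15, 10 and 1, and these shares count neighbouring peaks of a row separately. Of the 137 on chromosome 10, 80 lay on the plus strand within 200 kb of the Myh4 window. A minus-strand row inside the window held 6 more. Of the 87 on chromosome 15, 1 row held 36.

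Among the called peaks in which the muscles did not overlap, the 6 most abundant in soleus, S1 to S6, ranged from a mean of 4736 to 18070 CPM there. S1, at chr12:39958724-39959368 on the minus strand, had 10007, 15322 and 28880 CPM in the soleus of U12, U13 and U19 and 1717, 1044 and 1221 CPM in EDL, a log2 difference of 3.67 ± 0.45 (SE, adjusted p = 1.05e-05). The soleus libraries lay well above EDL in each rat, although U19 had more than U12 and U13 together. S2, at chr1:72889011-72889390 on the plus strand, had 5871, 7706 and 13802 CPM in soleus and 386, 307 and 576 in EDL (4.39 ± 0.55, adjusted p = 1.30e-05). S3, at chr8:55178466-55179112 on the plus strand, had 3268, 9882 and 12221 CPM in soleus and 1224, 822 and 831 in EDL (3.00 ± 0.46, adjusted p = 8.05e-05). Without U12, its lowest soleus library, the log2 difference of S3 was 3.73, and it was 2.43 without U19. None of the soleus values reached down to EDL, as the choice of peaks required.

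S4, at chr16:7291921-7292342 on the plus strand, was even between rats, with 4504, 5499 and 5752 CPM in soleus against 263, 149 and 252 in EDL (4.60 ± 0.53, adjusted p = 6.07e-06). S5, at chr13:52624643-52625420 on the plus strand, had 4188, 5369 and 5911 CPM in soleus and 234, 169 and 274 in EDL (4.53 ± 0.46, adjusted p = 2.02e-06). S6, at chr8:119030685-119031041 on the plus strand, had 3034, 3991 and 7183 CPM in soleus and 182, 142 and 232 in EDL (4.61 ± 0.45, adjusted p = 1.66e-06). The mean in soleus was 23.7, 22.8 and 25.5 times that in EDL for S4, S5 and S6. In all 6 peaks, S1 to S6, U19 was the highest and U12 the lowest soleus library in CPM. The TMM factors of U12, U13 and U19 soleus were 1.19, 0.988 and 0.823, which lower CPM in U12 and raise it in U19. By tags over tested tags alone, U19 was the lowest soleus library in S4 and S5, so the order there depends on the scaling. All 6 kept their call in every alternative fit tried.

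The 6 most abundant EDL peaks among the called peaks without overlap, E1 to E6, ranged from a mean of 4036 to 9032 CPM in EDL. E1, at chr3:161246218-161246427 on the minus strand, had 11269, 8000 and 7827 CPM in the EDL of U12, U13 and U19 and 2544, 1151 and 1580 in soleus, a log2 difference of -2.42 ± 0.63 (adjusted p = 0.00831). Its call was lost with lane in the fit (adjusted p = 0.104) and without U13 (0.0735), with a log2 difference of -2.23 in both. E2, at chr7:119443532-119443719 on the minus strand, was the most lopsided, with 6392, 5734 and 4770 CPM in EDL and 0.763, 9.41 and 7.34 in soleus (-10.29 ± 1.99, adjusted p = 9.98e-04). That is a 965-fold difference between the means, from a peak among the most abundant of one muscle to a trace in the other. In U12 soleus it rested on 8 tags, and the log2 difference was -9.29 without U12, -11.02 without U13 and -10.93 without U19.

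E3, at chr1:197874716-197875279 on the minus strand, had 4311, 4669 and 5660 CPM in EDL and 273, 244 and 307 in soleus (-4.15 ± 0.41, adjusted p = 1.88e-06). E4, at chr1:221756131-221756568 on the plus strand, had 3415, 4223 and 5250 CPM in EDL and 338, 483 and 808 in soleus (-3.05 ± 0.27, adjusted p = 6.16e-07). Both separated the muscles in all 3 rats by a wide gap and were called in every alternative fit tried. E5, at chr8:72841303-72841671 on the minus strand, had 4587, 3594 and 4698 CPM in EDL and 1911, 973 and 432 in soleus (-2.18 ± 0.58, adjusted p = 0.00917), and U12 soleus came closest to the EDL level. Without U19 its log2 difference was -1.65 (adjusted p = 0.07), and with lane in the fit it was -2.35 (adjusted p = 0.0516), so that the call was lost in both. E6, at chr1:215666418-215666737 on the plus strand, had 3957, 4015 and 4136 CPM in EDL and 792, 326 and 520 in soleus (-2.98 ± 0.67, adjusted p = 0.00307).

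**Figure D2:**
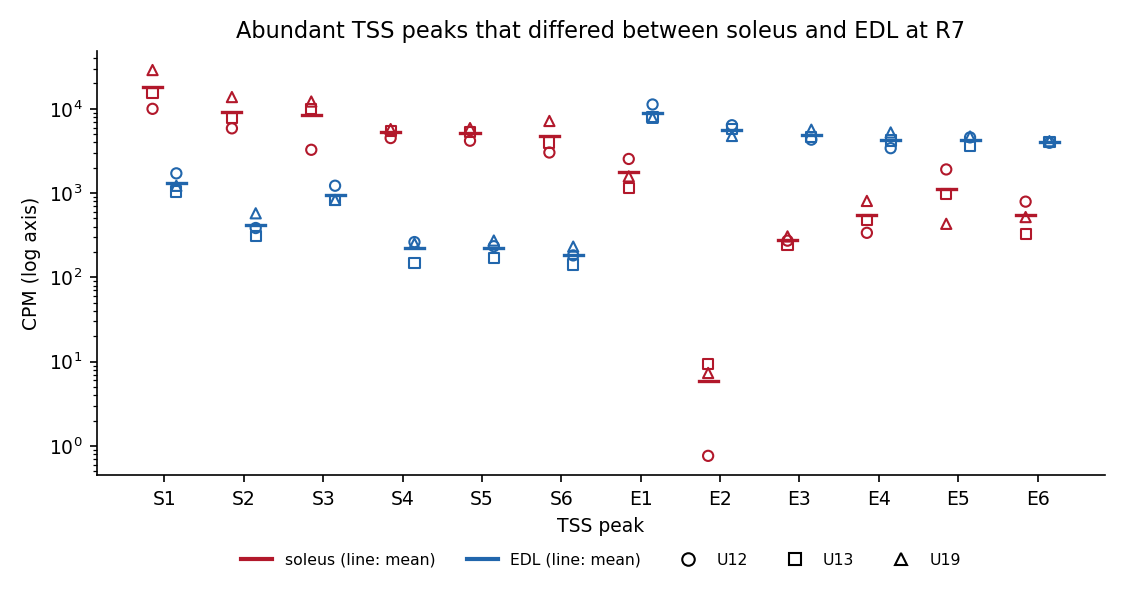
CPM on a log axis of the 6 most abundant peaks higher in soleus (S1 to S6) and the 6 most abundant lower in soleus (E1 to E6) in each R7 library, with a marker for each rat and a line at the mean of 3. The peaks were chosen among called peaks in which the muscles did not overlap, so the markers stay apart in each. The gap is widest at E2, where soleus lies between 0.763 and 9.41 CPM and EDL between 4770 and 6392.

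Some peaks had tags in 1 muscle alone. All 3 EDL libraries had 0 tags in 39 of the 868 peaks higher in soleus, and all 3 soleus libraries had 0 tags in 25 of the 710 lower peaks. Over all 9944 tested peaks, 154 had 0 tags in EDL and 88 in soleus, so most of these were not called. For these a fold change was set as a lower bound, against 3 tags summed over the libraries of the muscle at 0, and covers counting error only. The bounds use all 3 rats, U19 included, and the fitted log2 differences of such peaks depend on the count added to libraries at 0. The peak at chr1:50421407-50421939 on the plus strand had 5.15, 13.1 and 43.8 CPM in the soleus of U12, U13 and U19, at least 132-fold higher than EDL. U19 carried most of its signal, and its fitted log2 difference went from 11.10 with all rats to 9.59 without U19 (adjusted p = 5.87e-04), where the call held. Peaks at chr10:53636857-53636988 (16.02, 26.5 and 4.59 CPM) and chr10:53637914-53638263 (11.3, 21.8 and 1.53 CPM), both on the plus strand, were at least 100.3-fold and 73.5-fold higher, with U19 the lowest of the 3 rats. At chr3:105509303-105509457 on the minus strand soleus had 13.4, 13.3 and 4.59 CPM, at least 66.4-fold more. In 2 further peaks U19 carried most of the signal. The peak at chr2:122802040-122802328 on the plus strand had 1.53, 5.84 and 35.8 CPM and was at least 91.8-fold higher, with a fitted log2 difference of 10.70 with all rats and 8.36 without U19, and that at chr18:32320690-32321035 on the plus strand had 0.286, 2.08 and 42.2 CPM. The latter, at least 94.8-fold higher with all rats, lost its call without U19 (adjusted p = 0.104).

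On the EDL side, 4 of the 6 peaks with the largest fitted log2 differences, an order that depends on the count added to libraries at 0, lay on the plus strand of chromosome 10 within the Myh4 window. The peak at chr10:53783814-53783888 had 34.5, 40.3 and 31.1 CPM in EDL and no soleus tag, at least 281-fold lower in soleus. Peaks at chr10:53791552-53791655, chr10:53783365-53783455 and chr10:53786018-53786101 were at least 228-fold, 189-fold and 176-fold lower, from means of 28.7, 23.7 and 22.1 CPM in EDL. All 3 EDL libraries carried each of the 4. The remaining peaks were chr20:18546709-18546931 on the plus strand, with 19.8, 32.8 and 11.8 CPM in EDL and at least 171-fold lower in soleus, and chr1:100521542-100521640 on the minus strand, with 18.9, 21.7 and 16.04 CPM and at least 150.1-fold lower. The call of the last was lost with lane in the fit (adjusted p = 0.062), at a fitted log2 difference of -10.36 against -10.47 without lane.

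Some of the peaks that differed stood in a row. Tested peaks were joined into 8462 groups when neighbours on 1 strand were at most 2000 nt apart, and 1191 groups held a called peak. No group held calls in both directions, but 7788 of the 8462 held 1 tested peak and could not. The absence also rests on the fold cutoff. The peak chr1:198233506-198233679 on the minus strand was higher in soleus by 1.21 (adjusted p = 0.0067) in a group with 7 lower calls. In a group with 5 lower calls, chr18:30465280-30465337 on the plus strand was higher by 1.16 (adjusted p = 0.0232). Groups with 5 or more calls numbered 30, 13 higher and 17 lower in soleus, and held 260 calls, 16.5% of the 1578. In 23 of the 30 every tested peak was called. The 30 rows spanned 1.04 to 23.4 kb, and neighbouring peaks of a row are not independent of each other, since tags along 1 transcribed region can share their source.

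The row with the most calls lay on the minus strand of chromosome 15, chr15:33634468-33657899, where all 36 tested peaks were higher in soleus, by log2 differences of 3.64 to 5.28. They summed to 714, 1632 and 3130 CPM in the soleus of U12, U13 and U19 and to 78.8, 64.8 and 106 CPM in EDL. A second group further along the same strand, chr15:33611428-33618541, had 9 of 10 peaks higher in soleus, with sums of 151, 361 and 778 against 17.96, 16.2 and 24.4 CPM. Both rows had U19 highest and U12 lowest in soleus CPM, as S1 to S6 did, and the TMM factors widen that spread. The median log2 difference of the 36 peaks was 4.39 at R7, 6.13 in controls and 4.24 at D7. At chr3:105508263-105513096, minus strand, all 7 peaks were higher in soleus and the rats ran the other way, with 2136, 2044 and 496 CPM in soleus against 18.4, 13.4 and 17.4 in EDL. All 7 peaks at chr1:72894849-72899711 on the plus strand, downstream of S2, were higher in soleus as well, with sums of 246, 481 and 689 against 23.9, 20.6 and 25.9 CPM.

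Lower in soleus were all 9 peaks at chr1:197867048-197875279 on the minus strand, the row that E3 begins, with sums of 287, 260 and 333 CPM in soleus against 4633, 4979 and 5971 in EDL. All 8 peaks of the next row on that strand, chr1:197855948-197858946, were lower too, with 12.5, 18.6 and 21.4 CPM in soleus against 354, 364 and 286 in EDL. All 8 peaks at chr10:57277633-57283192 on the plus strand had sums of 2465, 2207 and 2731 CPM in EDL and 278, 247 and 661 in soleus. In these rows the 3 EDL libraries lay close together, and no soleus library came near them.

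Of the 710 peaks lower in soleus, 80 lay on the plus strand of chromosome 10 within 200 kb of the Myh4 window, in the region of the myosin heavy chain cluster. In RefSeq's GRCr8 annotation Myh3 (embryonic), Myh2 (type IIa) and Myh1 (type IIx) precede Myh4 on the plus strand, and Myh8 (perinatal) and Myh13 (extraocular) follow it. Which peak of Rnor_6.0 belongs to which of these neighbours was not resolved here. In that span 114 plus-strand peaks were tested, of which 7 were higher in soleus and 27 were not called beside the 80. The 7 and the 80 did not mix along the chromosome.

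All 35 peaks of the Myh4 window, chr10:53778241-53800524, were lower in soleus, by fitted log2 differences of -3.82 to -11.36. The value of -11.36 is that of the peak with no soleus tag given above as at least 281-fold lower, and it depends on the count added to libraries at 0. Their sums over the EDL libraries, 2305, 3464 and 1858 CPM, compare with 3357 ± 236 CPM (SD, n = 3) in control EDL and 1521 ± 322 CPM in D7 EDL. Soleus sums were 26.2 ± 12.2 CPM at R7, 23.5 ± 15.95 in controls and 10.6 ± 5.96 at D7. No single start dominated. The highest EDL peak of the window, chr10:53797328-53797599, took 18.2%, 15.9% and 13.5% of its tags in U12, U13 and U19, a mean of 15.9% ± 2.39 (SD, n = 3), and 14.1% ± 1.52 in control EDL. On the opposite strand, all 6 tested peaks at chr10:53793027-53797649 were lower in soleus too, with sums of 33.6, 67.2 and 35.3 CPM in EDL and 0, 0.099 and 1.53 in soleus.

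Upstream of the window, chr10:53711560-53764563 held 62 tested peaks, 40 of them lower and none higher in soleus. Their sums were 2570, 2788 and 2086 CPM in EDL and 164, 305 and 526 CPM in soleus, a 7.48-fold difference between the means. The gap was narrowest in U19, whose soleus sum was the highest of the 3 and whose EDL sum was the lowest. The number called varied from 31, with lane in the fit or without U13, to 45 in DESeq2. Downstream, 4 of 5 peaks at chr10:53837874-53843893 were lower in soleus, with sums of 252, 288 and 135 CPM in EDL and 9.82, 14.4 and 22.9 in soleus.

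The exception was a stretch at chr10:53632914-53643843, where 7 of 10 peaks were higher in soleus and none lower. Its sums were 135, 248 and 32.7 CPM in the soleus of U12, U13 and U19 and 34.1, 29.4 and 16.8 CPM in EDL. In control rats the order of the muscles was the other way for the sums, with 12.9 ± 4.84 CPM in soleus and 36.4 ± 3.92 in EDL, and at D7 soleus had 4.25 ± 2.22 and EDL 42.5 ± 17.2 (SD, n = 3). The median log2 difference over the 10 peaks, unlike the sums, was above 0 in controls, at 3.07, and was -3.28 at D7 and 6.76 at R7, and none of the 10 was called different between R7 and controls with all rats. Without U19, the peak chr10:53636239-53636442 was called (4.37, adjusted p = 0.0409, against 4.13 and 0.157 with U19). In soleus the sum was 0.931 ± 0.572 CPM after 1 day of recovery and 40.9 ± 40.2 after 3 days. U19, with 32.7 CPM, was the lowest R7 soleus library but lay above all control and D7 soleus libraries, whose highest had 15.98 and 6.23 CPM.

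**Figure D3:**
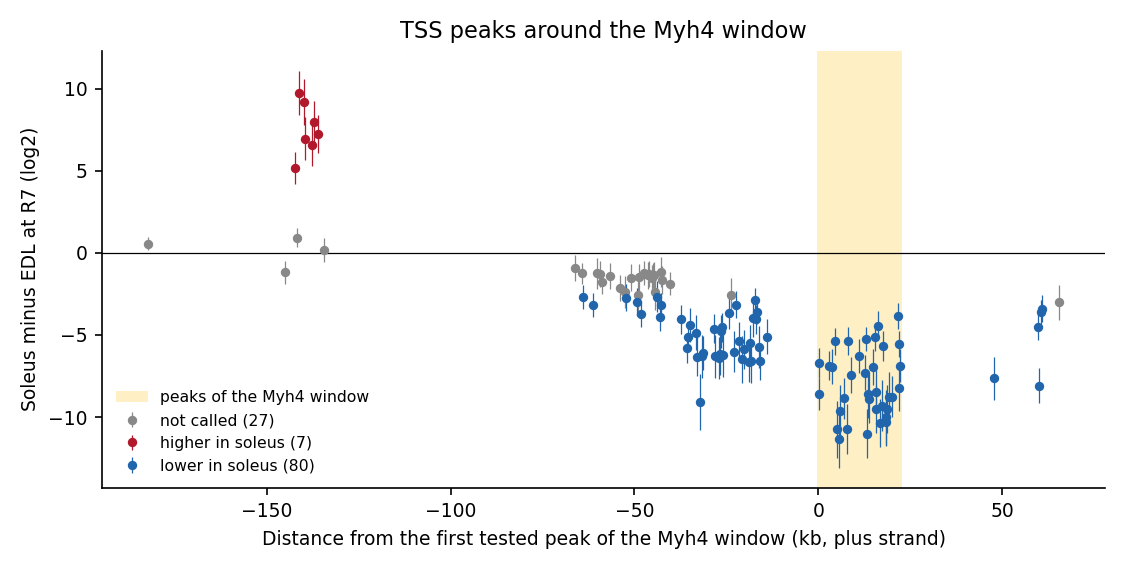
Log2 difference, soleus minus EDL at R7, with its standard error, of the 114 tested plus-strand peaks within 200 kb of the Myh4 window, plotted by distance in kb from the window's first tested peak. All 35 peaks of the shaded window lie between -3.82 and a fitted -11.36, where peaks with no soleus tag depend on the count added to libraries at 0, and the 7 peaks higher in soleus all stand before it, apart from the 80 that are lower.

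Within peaks, the position that collected the most tags rarely split cleanly by muscle. Of 2439 peaks with at least 50 tags in each of the 6 libraries, 1392 (57.1%) had the same leading base in all 6, and in 26 (1.07%) all soleus libraries shared 1 base and all EDL libraries another. In the remaining peaks the libraries of at least 1 muscle did not share a leading base, so they could not count as split. Of the 1578 called peaks, 179 reached this depth, of which 101 (56.4%) shared the leading base and 3 (1.68%) split by muscle. Of S1 to S6 and E1 to E6, 10 had 1 leading base in all libraries, however far the levels were apart. At S2, base 72889267 took 93.5% to 95.1% of the tags in soleus and 93.7% to 94.2% in EDL. At E2, base 119443647 took 89.6% to 91.6% in EDL and 87.5%, 68.4% and 91.7% in soleus, where the counts were 8, 95 and 24 tags. The exceptions were S4, where U12 EDL led at base 7292163 and the other 5 libraries at 7292166, and E1, where U12 and U13 soleus led at 161246311 and 161246316 and the other 4 libraries at 161246312.

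Between peaks of 1 group, use of the starts did differ in places. In 674 groups with 2 or more tested peaks, 31 (4.60%) changed the shares of their peaks between soleus and EDL beyond the difference in total level (edgeR diffSpliceDGE, adjusted p under 0.05, with 69 at an unadjusted p under 0.05). The count was 20 without U12, 15 without U13, 12 with gaps of at most 500 nt between peaks and 83 with gaps of at most 10000 nt. The highest peak differed between the muscles in 9 of the 31 and in 90 of the 674 (13.4%). The 5 of these 9 groups with the lowest p are described.

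In group 1, chr7:2908691-2912737 on the minus strand, the peak 2912306-2912737 took 90.1%, 95.7% and 96.0% of the group's tags in the soleus of U12, U13 and U19 and 17.1%, 26.9% and 47.6% in EDL. The peak 2908691-2909245, with its summit 3336 bases away and further along the direction of transcription, took 81.6%, 72.0% and 50.3% in EDL and 7.37%, 2.24% and 1.81% in soleus (adjusted p = 5.54e-11 for the group). In total level the group was a soleus one, with 1471, 2587 and 1705 CPM in soleus against 70.0, 32.2 and 38.1 in EDL, so its EDL shares rest on fewer tags. Control rats had 97.0% ± 0.603 (SD, n = 3) of the tags in the first of these peaks in soleus and 54.6% ± 19.2 in EDL. The second held 43.7% ± 20.3 in control EDL. At D7 the first held 95.6% ± 0.780 in soleus and 84.7% ± 6.14 in EDL. Both muscles then led at the same start, as they did on average in controls.

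Group 2, chr1:198228436-198233679 on the minus strand, held 9 tested peaks, of which 7 were called lower and none higher in soleus. The peak 198232231-198232676 had 209, 252 and 190 CPM in soleus and 134, 194 and 206 in EDL, and its log2 difference of 0.30 did not pass the test (adjusted p = 0.543). The peak 198233120-198233473, with its summit 928 bases away, had 17.4, 31.9 and 64.3 CPM in soleus and 294, 374 and 444 in EDL. The first thus held 78.6%, 73.8% and 57.9% of the group in soleus and 19.2%, 24.0% and 23.4% in EDL, and the second 6.52%, 9.34% and 19.6% against 42.1%, 46.2% and 50.5% (adjusted p = 1.11e-05). Control shares of the second peak, 13.7% ± 3.35 in soleus and 45.5% ± 1.82 in EDL, were near those of R7. Group 4, chr8:48716852-48718632 on the plus strand, had the same form. Its first peak differed by a log2 of -0.39 between the muscles (adjusted p = 0.428) and its second, with its summit 1318 bases on, by -4.75, so that the second held 8.65%, 5.26% and 12.2% in soleus and 68.9%, 65.7% and 55.8% in EDL (adjusted p = 1.59e-05).

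In group 3, chr15:4068255-4073978 on the plus strand, all 7 peaks were higher in soleus but by unequal amounts, from a log2 difference of 1.87 to 6.21. The peak 4069082-4069615 took 68.5%, 65.8% and 50.7% of the tags in soleus and 11.4%, 4.33% and 16.4% in EDL, and the peak 4073409-4073978 took 7.60%, 11.8% and 15.9% in soleus and 30.0%, 45.7% and 27.1% in EDL (adjusted p = 1.11e-05). At D7 the mean soleus share of the first was 9.50% ± 4.37, against 61.7% ± 9.63 at R7 and 47.5% ± 13.4 in controls. In group 5, chr18:30465280-30466442 on the plus strand, starts with summits 489 bases apart exchanged the lead, the first with 55.5%, 53.7% and 37.6% in soleus and 9.09%, 7.10% and 14.1% in EDL, and the second with 11.1%, 10.3% and 23.5% in soleus and 37.2%, 36.0% and 35.8% in EDL (adjusted p = 6.02e-04).

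**Figure D4:**
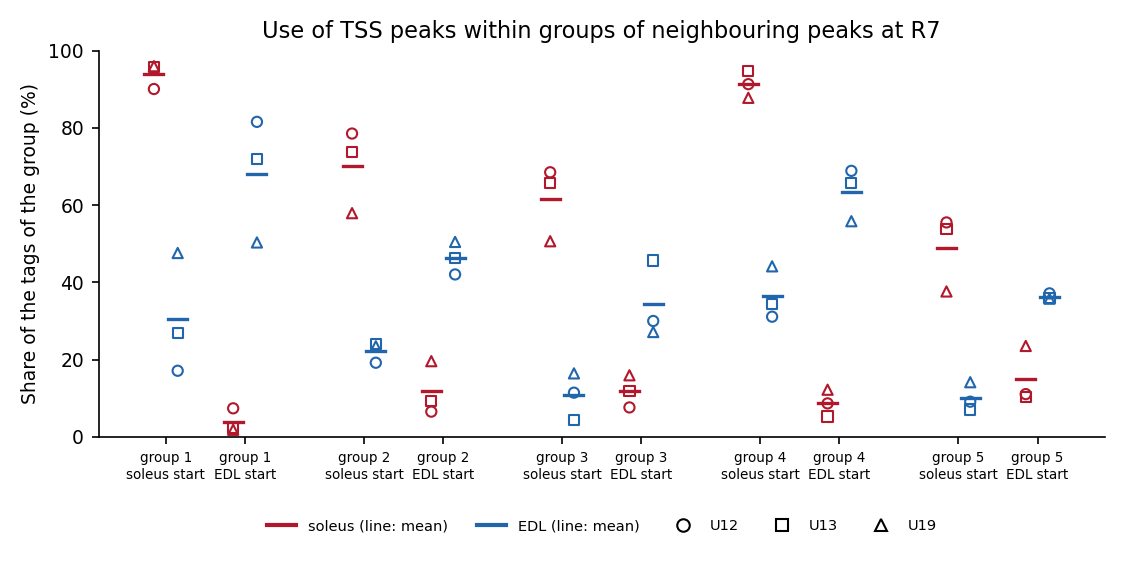
Share in percent of a group's tags at the peak that led in soleus and at the peak that led in EDL, for 5 groups of neighbouring peaks, with a marker for each R7 library and a line at the mean of 3. The groups were chosen among called groups whose highest peak differed between the muscles, so the change of lead was fixed by the choice. In group 1 the soleus start takes 90.1% to 96.0% in soleus and 17.1% to 47.6% in EDL.

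To ask where the muscles at R7 differed as they do in rats that were never unloaded, the R7 difference was set beside that of the controls. In control rats 1324 peaks (13.3%) were called, 737 higher and 587 lower in soleus. Both phases called 999 peaks, 63.3% of the R7 calls and 75.5% of the control calls, and none of these 999 changed direction. Among the 1578 R7 peaks, 97.7% had the same sign in controls, against 75.4% of all tested peaks. S1 to S6 had log2 differences of 4.60, 6.0, 2.59, 5.72, 5.73 and 4.43 in controls and 3.67, 4.39, 3.00, 4.60, 4.53 and 4.61 at R7. E1 to E6 had -3.36, -11.13, -3.63, -2.39, -3.88 and -3.70 in controls and -2.42, -10.29, -4.15, -3.05, -2.18 and -2.98 at R7.

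Tested directly, the soleus minus EDL difference at R7 was not called different from that of controls at any of the 9944 peaks in edgeR (0%), where 703 had an unadjusted p under 0.05 and the lowest adjusted p was 0.157. DESeq2 called 25. This does not show that the muscles had returned to the control difference, since the median standard error was 0.49 on the log2 scale. In simulated data the same test found 68 of 100 peaks made to differ by 2.5 and 20 of 100 made to differ by 1.5. The simulation used the same spread of a peak in all phases. It held no rat whose muscle difference departs from its group, so fewer may be found in the real data. The count turned on 1 rat. Without U19, 54 peaks were called, 24 shifted towards soleus and 30 towards EDL relative to controls. Examples, chosen after their values were seen, show what U19 does. The peak chr3:72214565-72215236 on the minus strand had 4.58, 10.1 and 30.0 CPM in the soleus of U12, U13 and U19 and 11.5, 9.02 and 5.37 in EDL. U19 alone had clearly more in soleus, the direction of controls (3.46), and the R7 minus control difference was -2.95 with U19 (adjusted p = 0.236) and -3.94 without it (adjusted p = 0.0060). At chr16:6962574-6963118 on the plus strand the rats agreed, with 913, 934 and 1097 CPM in soleus and 185, 60.9 and 212 in EDL. That peak had a log2 difference of 2.86 at R7 and -0.10 in controls, and the difference between them was 2.95 with U19 (adjusted p = 0.157) and 3.25 ± 0.65 without it (adjusted p = 0.0358).

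From the end of unloading to the end of recovery the muscles moved more. At D7, 1037 peaks (10.4%) differed between soleus and EDL, 716 of which were also called at R7, 45.4% of the R7 and 69.0% of the D7 calls. Of these 716, 47 changed direction, where none had done so between controls and R7. The difference itself moved between D7 and R7 at 556 peaks (5.59%), towards soleus at 335 (3.37%) and towards EDL at 221 (2.22%). In 532 of the 556 the 3 within-rat differences of one phase lay on one side of those of the other, as in 18.8% of all tested peaks. The count was 99 in a fit of the D7 and R7 libraries alone, 169 with lane in the fit, 233 without U13, 356 without the D7 rat U1 and 890 without U19. In the D7 rat U3 the muscles were also split by lane, soleus in lane 3 and EDL in lane 6, as U13 was split at R7. With column totals as library sizes it was 459, and 47.5% of these moved towards soleus, against 60.3% with TMM factors.

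The 335 peaks that moved towards soleus had a median soleus minus EDL log2 difference of 1.11 in controls, -0.67 at D7 and 2.28 at R7. Soleus rose in them from D7 to R7 by a median of 1.57 on the log2 scale and EDL changed by -1.10, and in 247 the order of the muscles turned around, as it did in 3792 of all 9944 tested peaks. Of these peaks 254 were also called at R7, as were 15.9% of all tested peaks. The peaks were chosen for a large move between D7 and R7, so both counts are descriptions. S1, S3 and S5 were among them. At D7 S3 had 2583, 2826 and 2389 CPM in soleus and 3013, 3971 and 2753 in EDL, a log2 difference of -0.31 that became 3.00 at R7 (difference 3.30 ± 0.60, adjusted p = 0.0022). The 221 peaks that moved towards EDL had medians of -0.47 in controls, 0.62 at D7 and -1.60 at R7, and their median change was -1.51 in soleus and 0.53 in EDL. E4 was one of them, with log2 differences of -1.28 at D7 and -3.05 at R7 (adjusted p = 0.00431). Over all tested peaks the 3 medians were 0.16, 0.06 and 0.08. Soleus libraries of D7 were in lane 3 and those of R7 in lanes 5 and 6, so changes within 1 muscle cannot be cleanly told apart from lane.

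The largest fitted moves towards soleus were at P1 to P4. P1 and P2 are the peaks chr10:53636857-53636988 and chr10:53637914-53638263 of the stretch before the Myh4 window. P1 had 0, 0.176 and 0.552 CPM in the soleus of the D7 rats and 1.40, 0.877 and 0.680 in EDL, and 16.02, 26.5 and 4.59 CPM against 0 at R7. Its difference moved by 11.86 ± 1.82 (adjusted p = 9.64e-04) and that of P2 by 11.82 ± 1.90 (adjusted p = 0.0016), values that depend on the count added to libraries at 0. The call of P2 was lost with lane in the fit (adjusted p = 0.0535), where its move was 10.07. Of the 10 peaks of that stretch 9 were called in this direction.

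P3, at chr1:254735508-254735753 on the minus strand, turned from an EDL into a soleus peak. Soleus had 5.86, 1.41 and 4.14 CPM at D7 and 377, 649 and 443 at R7, while EDL had 229, 271 and 96.5 CPM at D7 and 16.6, 1.29 and 17.3 at R7. After 1 day of recovery soleus already had 419, 732 and 425 CPM against 4.08, 10.1 and 19.1 in EDL. In controls both muscles were low, with 14.1 ± 11.5 CPM in soleus and 10.1 ± 8.70 in EDL (SD, n = 3). The log2 difference went from -5.79 at D7 to 5.68 at R7, a move of 11.47 ± 1.33 (adjusted p = 9.71e-05), and the R7 minus control difference of 5.23 did not pass its test in edgeR (adjusted p = 0.221). DESeq2 called it, at 5.45 (adjusted p = 0.00126), and the other alternatives did not (adjusted p of 0.0726 to 0.894). P4, at chr1:254727031-254727833 on the same strand, had the same course at lower levels. It had 0.366, 0 and 0 CPM in soleus and 7.68, 12.7 and 2.04 in EDL at D7, and 5.91, 23.2 and 18.4 against 0.461, 0.368 and 0.607 at R7 (11.26 ± 1.17, adjusted p = 3.27e-05), and its move too depends on the count added to libraries at 0. Both were called in all 15 alternative fits.

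The largest fitted moves towards EDL were at Q1 to Q4. Q1, at chr2:266275441-266275666 on the minus strand, had 56.6, 63.5 and 41.7 CPM in soleus at D7 and 0.0954, 0 and 1.84 at R7, while EDL stayed at or under 1.73 CPM in all 6 libraries. Its difference moved by -7.63 ± 1.29 (adjusted p = 0.00198), but without U19 the fit gave an adjusted p of 1 for -6.14, with all but 1 of the remaining R7 libraries at 0. The move depends on the count added to libraries at 0, and lay between -6.14 and -9.19 in the alternative fits. Control soleus had 8.25, 14.5 and 10.02 CPM. Q3, at chr15:27818986-27819819 on the minus strand, fell in soleus from 36.8, 46.0 and 51.9 CPM at D7 to 1.34, 1.29 and 7.04 at R7, while EDL had 16.9, 3.95 and 10.2 CPM at D7 and 17.0, 25.95 and 43.3 at R7. The log2 difference went from 2.20 at D7 to -3.49 at R7 and was -1.46 in controls (move -5.69 ± 0.61, adjusted p = 3.98e-05), and the call held in all 15 alternative fits. Q2, at chr18:61071526-61071877 on the minus strand, had 0.916, 2.20 and 0.828 CPM in soleus at D7 and 0 in all 3 soleus libraries at R7, while EDL had 12.01, 10.1 and 15.8 CPM at D7 and 5.99, 11.6 and 17.2 at R7. Its move of -6.28 (adjusted p = 0.0245) therefore depends on the count added to libraries at 0, and it was -3.94 (adjusted p = 0.263) with libraries thinned to the depth of the shallowest at R7. Q2 and Q4, at chr9:17697804-17697988 on the minus strand (-5.64, adjusted p = 0.0217), lost their calls in 6 and 4 of the 15.

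**Figure D5:**
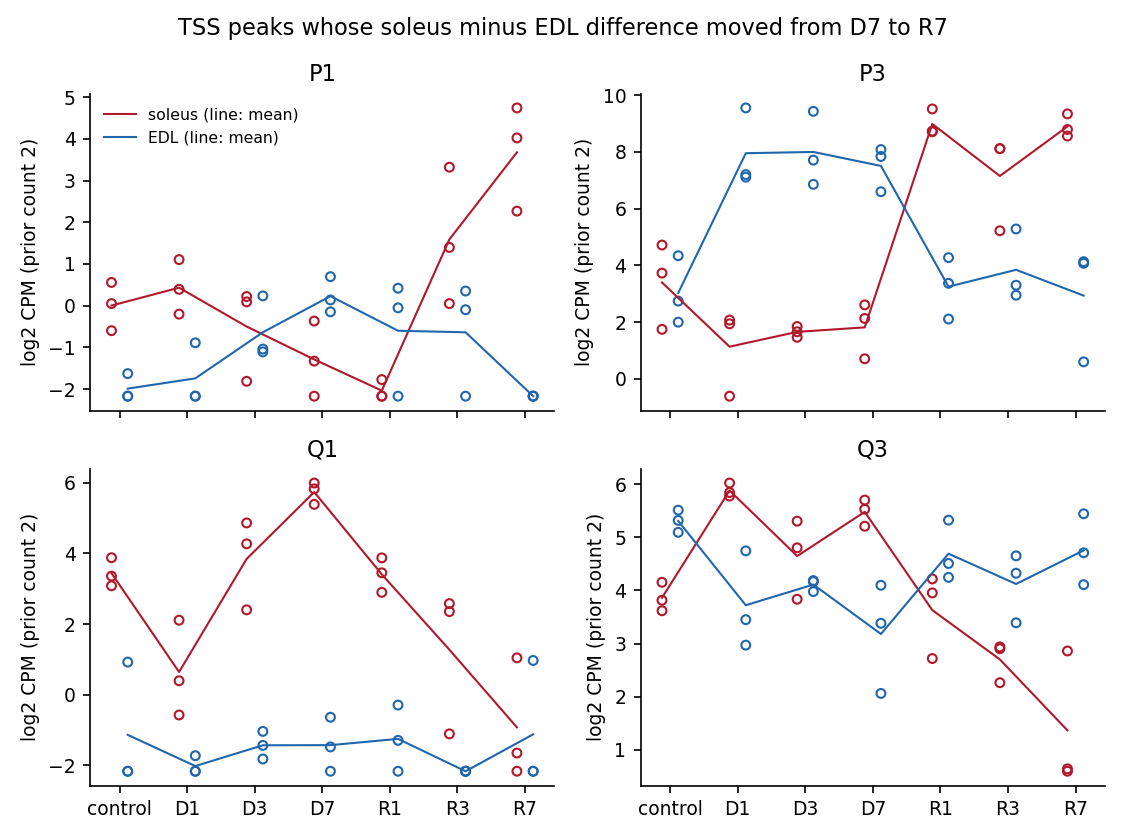
Log2 CPM in each library over the 7 phases of the series, where control rats were never unloaded, D1, D3 and D7 give the day of unloading and R1, R3 and R7 the day of recovery, for P1, P3, Q1 and Q3, with soleus in red, EDL in blue and lines at the mean of 3 rats. In P3 the muscles have changed places by R1, and in Q1 soleus falls from 41.7 to 63.5 CPM at D7 to at most 1.84 CPM at R7. The phases were largely sequenced in different lanes.

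The other window that the study names, that of Rtkn on chromosome 4, held 1 tested peak, chr4:114835675-114836032 on the plus strand. Soleus had 1.24, 0.792 and 0 CPM and EDL 0, 0.920 and 0.780, the groups overlapped, and no difference was detectable at this depth (-0.06 ± 0.89, adjusted p = 0.982).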

How the data were processed

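CAGE libraries of soleus and EDL from 21 rats were read from a table of tag counts per TSS peak. According to the study's methods the authors trimmed the reads, mapped them to Rnor_6.0 with STAR, keeping reads that map to several loci, aggregated tags to CAGE tag start sites (CTSS) with PromoterPipeline and clustered these with DPI1, and the submitters' processing notes also name Trimmomatic 0.38, BWA and HISAT2. Tags of near-identical genes, such as the myosin heavy chains, may therefore be shared between loci. The deposited counts are whole, unnormalized tags per peak and, per library, per CTSS. The normalized columns of the authors were not used.

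Here 2 mitochondrial peaks were left out of 9971. Counts of all 42 libraries were fitted together in edgeR 4.0.16 (R 4.3.3), with filterByExpr, TMM factors, a robust quasi-likelihood fit, the rat as a block and 1 soleus minus EDL term for each of 7 phases, which left 14 residual degrees of freedom. A peak was called at a Benjamini-Hochberg adjusted p under 0.05 and an absolute log2 difference over 1.25, the cutoffs of the study, and tests were two-sided. The standard error is the log2 difference divided by the square root of F, and log2 CPM used a prior count of 2. Bounds cover counting error only and leave out the spread between rats. Tags carry no molecular identifiers, and shares of single libraries are given without an error. Libraries with the same U number come from the same rat, which pairs them. Deviations of the 2 muscles of a rat from their group means correlated by -0.307 to 0.561, above 0.1 in 15 of 21 rats, and in U12, U13 and U19 by 0.185, 0.266 and -0.139.

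Named peaks were the 6 with the largest difference and the 6 with the highest mean in the higher muscle in each direction, among called peaks without overlap and with at least 10 CPM; the 4 largest moves in each direction against D7 and controls by the same rule over within-rat differences; the 5 start-usage groups with the lowest p whose highest peak differed; and peaks around the Myh4 window and in the Rtkn window, taken from a picture in the study, so the window ends are approximate. The comparison, lists and rules were chosen with earlier results of these data known. In simulated counts for the soleus minus EDL comparison at R7 (9935 peaks), 51 of 100 differences of 1.5 and 91 of 100 of 2.5 on the log2 scale were found, with 7 wrong calls among 149. All other simulated peaks had no muscle difference at R7, whereas 15.9% of real peaks were called. The adjusted p depends on that share, so these rates may not hold for the real comparison. Alternatives were DESeq2 1.42.0, other scaling factors, filters, models, depths and gaps, and leaving out each rat. Figures were drawn with matplotlib 3.10.9.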

Additional observations from a re-analysis of the deposited data

Results flagged for a closer look

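The soleus minus EDL difference was tested for a change between D7 and R7, and 556 peaks passed that test in edgeR, at an adjusted p under 0.05 and past the cutoff on the change. The 4 largest moves towards soleus among the peaks named were 11.86 at chr10:53636857-53636988 and 11.82 at chr10:53637914-53638263 on the plus strand, and 11.47 at chr1:254735508-254735753 and 11.26 at chr1:254727031-254727833 on the minus strand. The 4 largest moves towards EDL were -7.63 at chr2:266275441-266275666, -6.28 at chr18:61071526-61071877, -5.69 at chr15:27818986-27819819 and -5.64 at chr9:17697804-17697988, all on the minus strand. At chr2:266275441-266275666 and chr9:17697804-17697988 the muscles did not differ past the threshold at R7 (0.16 and -1.26, adjusted p = 0.944 and 0.450), and the moves came with differences of 7.79 and 4.38 at D7. At chr9:17697804-17697988 the D7 soleus libraries had 4.21, 9.49 and 65.1 CPM, so 1 library held most of its signal.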

How the results depend on the processing

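The pairing by rat moved no count by over 1.5 times. Without the replicate block, 1679 peaks differed at R7, 0 between R7 and controls, 547 between R7 and D7, and 31 groups in start usage. Of the other fits, using only the libraries compared gave 969 at R7 (430 higher and 539 lower in soleus) and 99 for R7 minus D7. Adding sequencing lane gave 1042 and 169. Leaving out each rat in turn gave 1106 to 1939 calls at R7, 0 to 54 for R7 minus control, 233 to 890 for R7 minus D7, and 15 to 27 groups in start usage (20 without U12, 15 without U13). DESeq2 called 1671, 25 and 738. Start usage changed in 12 groups with gaps of at most 500 nt, 83 with 10000 nt, and 17 with peaks of at least 10% of their group. Column totals as library sizes shifted the median R7 minus D7 difference by -0.25 and gave 459 calls, 47.5% of them towards soleus against 60.3% with TMM. The R7 calls were 51.6% to 57.4% higher in soleus in the alternative fits of all libraries. Of 1651 alternative values of 126 named peaks, 1576 kept their direction and side of the threshold, 59 lost a call, 13 gained one and 3 reversed, with the fit without U13 counted under a second name as well, that of rats with both muscles in 1 lane. The reversals were at chr10:53643714-53643843 on the plus strand, a peak not called at R7, with 0.15 in all rats, -0.554 with lane, -0.556 without U13 and 0.504 without U19. The causes were not tested. With 3 rats a phase and libraries from 2814982 tags up, small differences of low peaks could not be resolved.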

Other observations

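The most abundant peaks differed in how far their muscle difference held through unloading. S1 fell in soleus to 5941, 7100.5 and 6359 CPM at D7, with 4619, 4134 and 1050 CPM in EDL, and its log2 difference was 4.60 in controls, 1.23 at D7 (not called, adjusted p = 0.058), 0.58 after 1 day of recovery, 3.64 after 3 days and 3.67 at R7. S2 kept a large difference, 6.0 in controls, 4.16 at D7, 2.79 after 1 day of recovery and 4.39 at R7. E1, E5 and E6 had their largest differences after 1 day of recovery, -5.88, -6.55 and -6.93, and their smallest at R7, -2.42, -2.18 and -2.98. None of these 3 passed the test of R7 against controls (adjusted p = 0.916, 0.680 and 0.941). In control soleus they had 1189 ± 271, 455 ± 117 and 528 ± 68.5 CPM (SD, n = 3), and at R7 1758 ± 713, 1105 ± 748 and 546 ± 234.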
